A study of Homo sapiens with 12 samples.

Results

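Aminoacyl-tRNA synthetases join each amino acid to its own tRNA and so feed translation, in the cytosol and, through a largely separate set of enzymes, in mitochondria. Genes were taken by symbol: a letter followed by ARS1 (cytosolic enzymes) or ARS2 (mitochondrial enzymes), plus EPRS1, FARSA, FARSB and the scaffold proteins AIMP1, AIMP2 and EEF1E1 of the multisynthetase complex, which holds several of the cytosolic enzymes together. Of 40 genes that meet this rule, 27 were measured among 11963 genes on the arrays, 17 of them cytosolic and 10 mitochondrial. GARS1 and KARS1, each of which makes the glycyl or lysyl enzyme of both compartments, were counted as cytosolic. MARS1, QARS1 and TARS2 had only probe sets that carry several gene symbols, and 10 others, FARSB, AIMP2 and EEF1E1 among them, had no listed probe set, so these 13 genes were not analysed here.

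All arrays came from RCC4 cells, a long-established line grown from a human clear cell renal carcinoma. There were 4 groups of 3 arrays: siRNA against YAP (siYAP) with erastin, non-targeting siRNA (siNT) with erastin, siYAP with DMSO, and siNT with DMSO. Silencing ran for 2 days, and erastin at 1 µM or the vehicle DMSO was then given for 7 hours. YAP is a transcriptional co-activator of the Hippo pathway, and erastin blocks the importer of cystine, the oxidised form of cysteine. When amino acids run short, uncharged tRNAs activate the kinase GCN2, and the transcription factor ATF4 is then made and switches on genes of amino acid import and synthesis. Many cytosolic synthetase genes are known ATF4 targets.

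Values are the authors' RMA intensities on a log2 scale, in which 1 unit is a 2-fold difference. They ran from 2.02 to 14.45, with array medians of 6.49 to 6.52, and replicate arrays correlated at 0.9962 to 0.9987 over genes. YAP1 averaged 5.26 ± 0.83 in siYAP cells with erastin and 8.54 ± 0.095 in siNT cells with erastin (SD, n = 3 each), and 4.62 ± 0.39 in siYAP cells with DMSO against 8.54 ± 0.06 in siNT cells with DMSO. Markers of kidney epithelium such as PAX8 were high, the proximal tubule receptor LRP2 was near the bottom of the scale, and group means of 15 endothelial, fibroblast and immune markers lay between 2.23 and 7.6, with none called in any comparison. Of 9 markers of renal carcinoma and tubule epithelium, VIM among them, 3 rose and 2 fell with silencing under erastin. In DMSO 4 rose and 2 fell. Over all genes 20% rose and 14.8% fell under erastin, and 18.1% rose and 15.6% fell in DMSO. EPCAM had 1.02 under erastin and 1.04 in DMSO, and KRT18 had -0.45 and -0.35. The actin 3′ to 5′ probe difference, a sign of RNA integrity, was 3.35 to 3.71 on siYAP arrays with erastin, 1.49 to 2.82 on siNT arrays with erastin, 1.49 to 3.14 on siYAP arrays with DMSO and 2.40 to 2.97 on siNT arrays with DMSO. The same difference for GAPDH did not set the first group apart, at 0.13 to 0.20 on siYAP arrays with erastin, 0.07 to 0.22 on siNT arrays with erastin, 0.20 to 0.22 on siYAP arrays with DMSO and 0.12 to 0.25 on siNT arrays with DMSO. The part of either in the results was not tested. RNA of whole cultures was measured, so fewer cells that express a gene and less of its RNA per cell cannot be told apart.

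ATF4 pairs with C/EBP proteins on a composite DNA element whose core was searched here as TGATGNAA, on both strands, in RefSeq promoters of GRCh38.p14 that reach from 250 bases before to 50 bases after a gene's start. No other motif was searched. The table held a promoter for 33 of the 40 genes and 24 of the 27 measured ones. It gave none for YARS1, VARS1 and LARS1 among the measured genes. The letters were found in 7 of 19 cytosolic genes (36.8%) and in 1 of 14 mitochondrial genes (7.14%), against 3.62% of all 35116 promoters and 4.46% of all 27305 genes. The stretches of 30 bases that hold the match in the 7 measured genes are shown because these genes are followed through the comparisons below, each on its gene's strand from 5′ to 3′, with the match in capitals.
AARS1, chr16:70289675-70289704, minus strand: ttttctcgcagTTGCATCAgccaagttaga
CARS1, chr11:3057407-3057436, minus strand: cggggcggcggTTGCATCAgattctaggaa
GARS1, chr7:30594834-30594863, plus strand: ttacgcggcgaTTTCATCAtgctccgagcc
IARS1, chr9:92293692-92293721, minus strand: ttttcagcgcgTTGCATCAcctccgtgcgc
NARS1, chr18:57621804-57621833, minus strand: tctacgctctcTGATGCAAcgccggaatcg
TARS1, chr5:33440956-33440985, plus strand: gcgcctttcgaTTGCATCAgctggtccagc
YARS2, chr12:32756076-32756105, minus strand: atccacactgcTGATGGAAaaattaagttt
AARS1, CARS1, IARS1, NARS1 and TARS1 carry the same 8 letters, TTGCATCA or, in NARS1, the reverse complement TGATGCAA. The match begins 2 bases before the start of CARS1, 13 before that of IARS1 and 33 before 1 of the annotated starts of GARS1. In TARS1 it begins at transcript base 3, counted from 1 of its starts, and in NARS1 at transcript base 15, while in AARS1 it lies 187 and in YARS2 197 bases upstream. CARS1, GARS1 and TARS1 each have 2 promoters in the table, and only 1 of the 2 holds a match. In GARS1 and TARS1 that is the promoter of the downstream start. MARS1 has TTGCATCA beginning 4 bases before its start but has no value here. A match describes the letters of these windows and does not show that a factor binds there.

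The effect of YAP silencing was asked first in cells with DMSO. Cytosolic synthetase genes were lower in siYAP cells: 10 of 17 fell and none rose at an adjusted p under 0.05 (limma, two-sided, Benjamini-Hochberg over all 11963 genes), with a median log2 difference of -0.18. Over all genes 33.7% were called, 18.1% higher and 15.6% lower, with a median of 0.02. Of the 10 mitochondrial genes 3 fell and 1 rose, with a median of -0.09. No member differed by 2-fold, and the largest falls were those of the mitochondrial NARS2 and the cytosolic YARS1 and CARS1.

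YARS1, the tyrosyl enzyme, read 11.85, 11.86 and 11.87 on siYAP arrays with DMSO, against 12.46, 12.51 and 12.39 on siNT arrays with DMSO. The siYAP arrays lay close together and well below every siNT array. The log2 difference was -0.59 (95% interval -0.71 to -0.47, limma adjusted p = 2.6e-06), a 1.51-fold lower level. CARS1, which charges tRNA with cysteine, read 11.58, 11.54 and 11.54 in siYAP cells, against 12.03, 12.11 and 12.04 in siNT cells. These groups did not overlap either, and the difference was -0.51 (-0.61 to -0.40, limma adjusted p = 4.91e-06). Its other probe set gave -0.53. WARS1, the tryptophanyl enzyme and a gene induced by interferon gamma, read 9.28, 9.33 and 9.29 in siYAP cells, against 9.60, 9.66 and 9.61 in siNT cells. It fell by 0.33 on the log2 scale (limma adjusted p = 0.000261), and its other probe set gave -0.30.

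The other cytosolic falls were smaller. AARS1 (alanyl) and VARS1 (valyl) each fell by 0.26, and SARS1 (seryl), TARS1 (threonyl) and NARS1 (asparaginyl) each fell by 0.21. GARS1 (glycyl) and IARS1 (isoleucyl) each fell by 0.18. In each of these 7 genes the 3 siYAP arrays lay below the 3 siNT arrays, as they did in 10 of 17 cytosolic and 7 of 10 mitochondrial genes and in 20.7% of all genes. All siYAP arrays lay above all siNT arrays in 1 cytosolic and 1 mitochondrial gene, and in 24.7% of all genes. TARS1 showed the order clearly, at 11.18, 11.29 and 11.25 in siYAP cells, against 11.46, 11.46 and 11.43 in siNT cells. AARS1 was more spread, at 10.17, 10.32 and 10.04 in siYAP cells, against 10.44, 10.52 and 10.34 in siNT cells, with the highest siYAP array just under the lowest siNT array. A second VARS1 probe set gave -0.02 (adjusted p = 0.891 over probe sets), so the valyl value rests on 1 probe set. AARS1, GARS1, IARS1, SARS1 and VARS1 missed the threshold under at least 1 of 20 alternatives, with limma adjusted p-values up to 0.0805, 0.0753, 0.0536, 0.11 and 0.0769. The count of 10 was 6 without siNT DMSO replicate 2 and 5 without siYAP DMSO replicate 3.

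The cytosolic genes that did not pass the test were EPRS1, FARSA, HARS1, KARS1, LARS1, RARS1 and AIMP1, with differences from -0.11 to 0.15. Most of these belong to the multisynthetase complex. Of its 6 measured members only IARS1 fell, and the median difference was -0.02, whereas 9 of 11 free cytosolic enzymes fell, with a median of -0.21. The lysyl enzyme KARS1, which serves both compartments, read 12.92, 12.91 and 12.95 in siYAP cells, against 12.96, 12.95 and 12.92 in siNT cells, and its difference of -0.01 had an interval of -0.11 to 0.09. The LARS1 probe set is of a type whose probes can also bind other transcripts. The difference between free and complex-bound enzymes was not tested.

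AIMP1, a scaffold of the complex, gave opposite answers from its 2 probe sets. The brighter one, used here, read 10.04, 10.06 and 10.00 in siYAP cells, against 9.87, 9.84 and 9.95 in siNT cells. That difference of 0.15 was not called (limma adjusted p = 0.0876), while the other probe set was lower by 0.61 (adjusted p = 0.000165 over probe sets). The direction of AIMP1 is therefore not settled by these arrays.

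Among the mitochondrial enzymes NARS2, which charges asparagine, was lowest relative to siNT. It read 7.52, 7.50 and 7.46 in siYAP cells, against 8.12, 8.19 and 8.10 in siNT cells, a difference of -0.64 (-0.80 to -0.48, limma adjusted p = 1.76e-05) with no overlap. The tyrosyl enzyme YARS2 was the one member that rose in DMSO, at 8.39, 8.34 and 8.30 in siYAP cells, against 8.08, 8.07 and 8.06 in siNT cells. Its difference was 0.27 (0.15 to 0.40, limma adjusted p = 0.00243), opposite in sign to that of YARS1, which charges the same amino acid in the cytosol. CARS2 (cysteinyl) fell by 0.23 and HARS2 (histidyl) by 0.21, and CARS2 missed the threshold under 5 of 20 alternatives. The 6 others lay between -0.14 and 0.02. RARS2, the arginyl enzyme, read 2.48 to 2.86 on all arrays, close to the lowest value in the table, too dim for its difference to be informative.

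**Figure D1:**
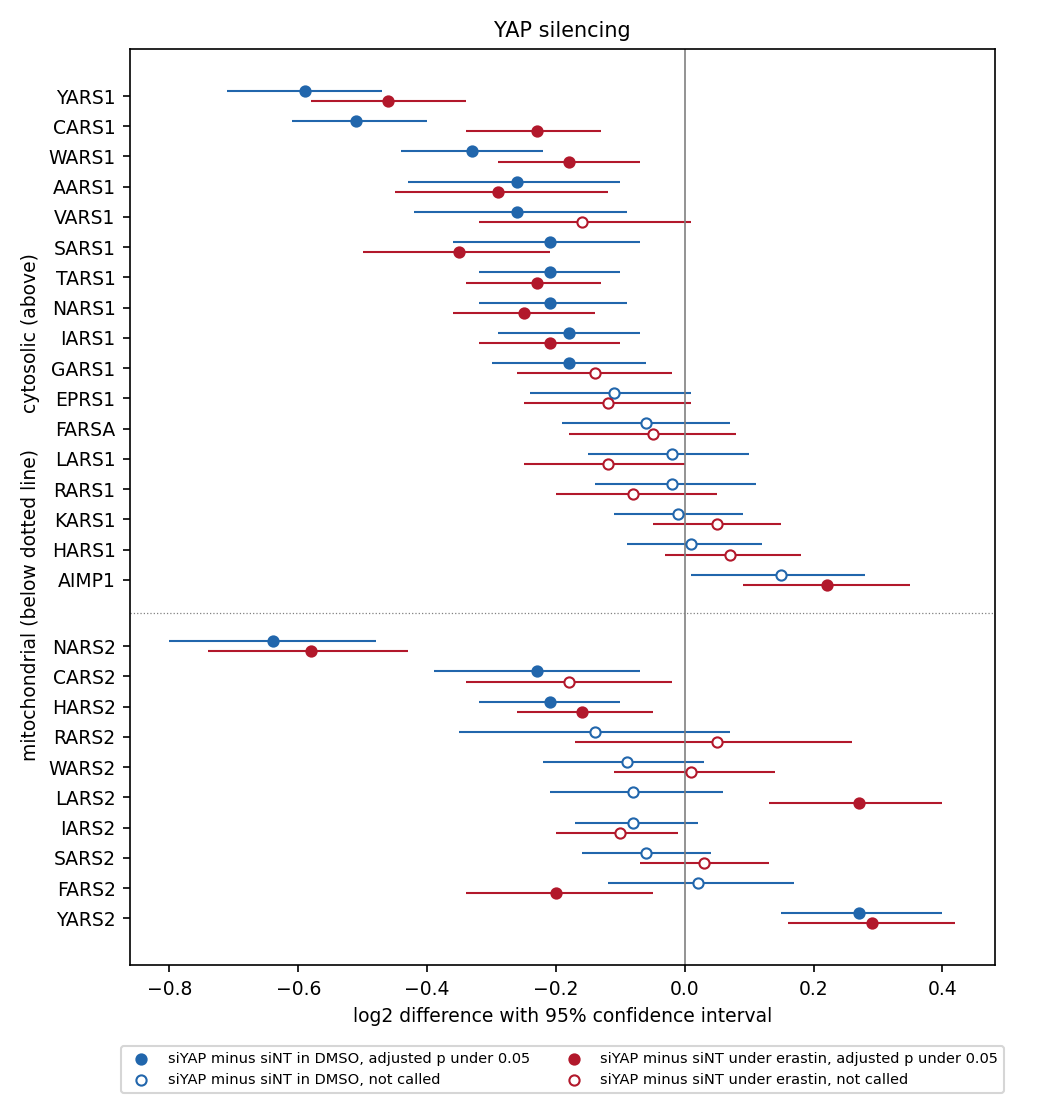
Log2 difference siYAP minus siNT with its 95% confidence interval for each of 17 cytosolic (above the dotted line) and 10 mitochondrial synthetase genes, in DMSO and under erastin. Filled points passed an adjusted p under 0.05 and open points did not. Most cytosolic points lie left of 0, YARS2 lies right of 0 in both conditions, and LARS2 lies right of 0 under erastin.

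HARS1 and HARS2 lie head to head on chromosome 5, and their annotated starts are 85 bases apart. The 84 bases between the starts are shown because both genes read away from this stretch (GRCh38.p14, plus strand, the direction of HARS2).
HARS1 and HARS2, chr5:140691371-140691454: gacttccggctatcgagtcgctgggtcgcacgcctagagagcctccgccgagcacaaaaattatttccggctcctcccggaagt
HARS2 read 9.90, 9.88 and 9.85 in siYAP cells with DMSO, against 10.06, 10.08 and 10.12 in siNT cells with DMSO (adjusted p = 0.00492, limma). HARS1, the cytosolic partner, read 11.19, 11.18 and 11.13 in siYAP cells, against 11.16, 11.14 and 11.14 in siNT cells, a difference of 0.01 (-0.09 to 0.12). The siYAP and siNT arrays thus overlapped for HARS1 and not for HARS2. The enzymes are close relatives in sequence, so some sharing of signal between their probes cannot be told apart from expression. Whether the 2 differences differ was not tested.

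Silencing was also compared under erastin, on the other 6 arrays. Over all genes 34.9% were called, 20% higher and 14.8% lower, with a median of 0.01. Of 17 cytosolic genes 8 fell and 1 rose, with a median of -0.16, and all 8 were among the 10 that fell in DMSO. Of 10 mitochondrial genes 3 fell and 2 rose, with a median of -0.05. All siYAP arrays lay below all siNT arrays in 12 of 17 cytosolic and 5 of 10 mitochondrial genes, against 19.7% of all genes. They lay above in 2 cytosolic and 2 mitochondrial genes, against 25.3% of all genes.

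YARS1 again had the largest cytosolic fall, at 12.16, 12.13 and 12.20 in siYAP cells with erastin, against 12.60, 12.57 and 12.70 in siNT cells with erastin. The difference was -0.46 (-0.58 to -0.34, limma adjusted p = 2.27e-05). SARS1 read 10.79, 10.72 and 10.74 in siYAP cells, against 11.06, 11.09 and 11.16 in siNT cells, a difference of -0.35 (limma adjusted p = 0.00107). In both genes the groups were clearly apart. AARS1 fell by 0.29, NARS1 by 0.25, CARS1 and TARS1 by 0.23 each, IARS1 by 0.21 and WARS1 by 0.18. GARS1 had a difference of -0.14 and was not called (limma adjusted p = 0.0613), and KARS1 had 0.05 (-0.05 to 0.15). WARS1 missed the threshold under 3 of 20 alternatives, with a limma adjusted p up to 0.0739, while its other probe set gave -0.37. The rise was that of AIMP1, 0.22 (limma adjusted p = 0.014), whose other probe set gave -0.73 (adjusted p = 3.52e-05 over probe sets).

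In the mitochondrial set NARS2 read 7.43, 7.48 and 7.52 in siYAP cells with erastin, against 7.95, 7.99 and 8.24 in siNT cells with erastin. It fell by 0.58 (limma adjusted p = 3.92e-05). YARS2 read 8.25, 8.19 and 8.36 in siYAP cells, against 8.04, 7.92 and 7.97 in siNT cells, and rose by 0.29 (limma adjusted p = 0.0016). Both thus kept the direction they had in DMSO, with no overlap. LARS2, the leucyl enzyme, rose by 0.27 (limma adjusted p = 0.0042), at 8.13, 8.21 and 8.27 in siYAP cells, against 7.95, 7.84 and 8.02 in siNT cells. Its second probe set gave 0.15 and was not called (adjusted p = 0.0702 over probe sets). FARS2 (phenylalanyl) fell by 0.20 and HARS2 by 0.16. The FARS2 call was lost under 11 of 20 alternatives and its second probe set gave 0.01, and HARS2 lost its call under 4. The mitochondrial count of 5 was 3 without siYAP erastin replicate 1 or replicate 2.

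**Figure D2:**
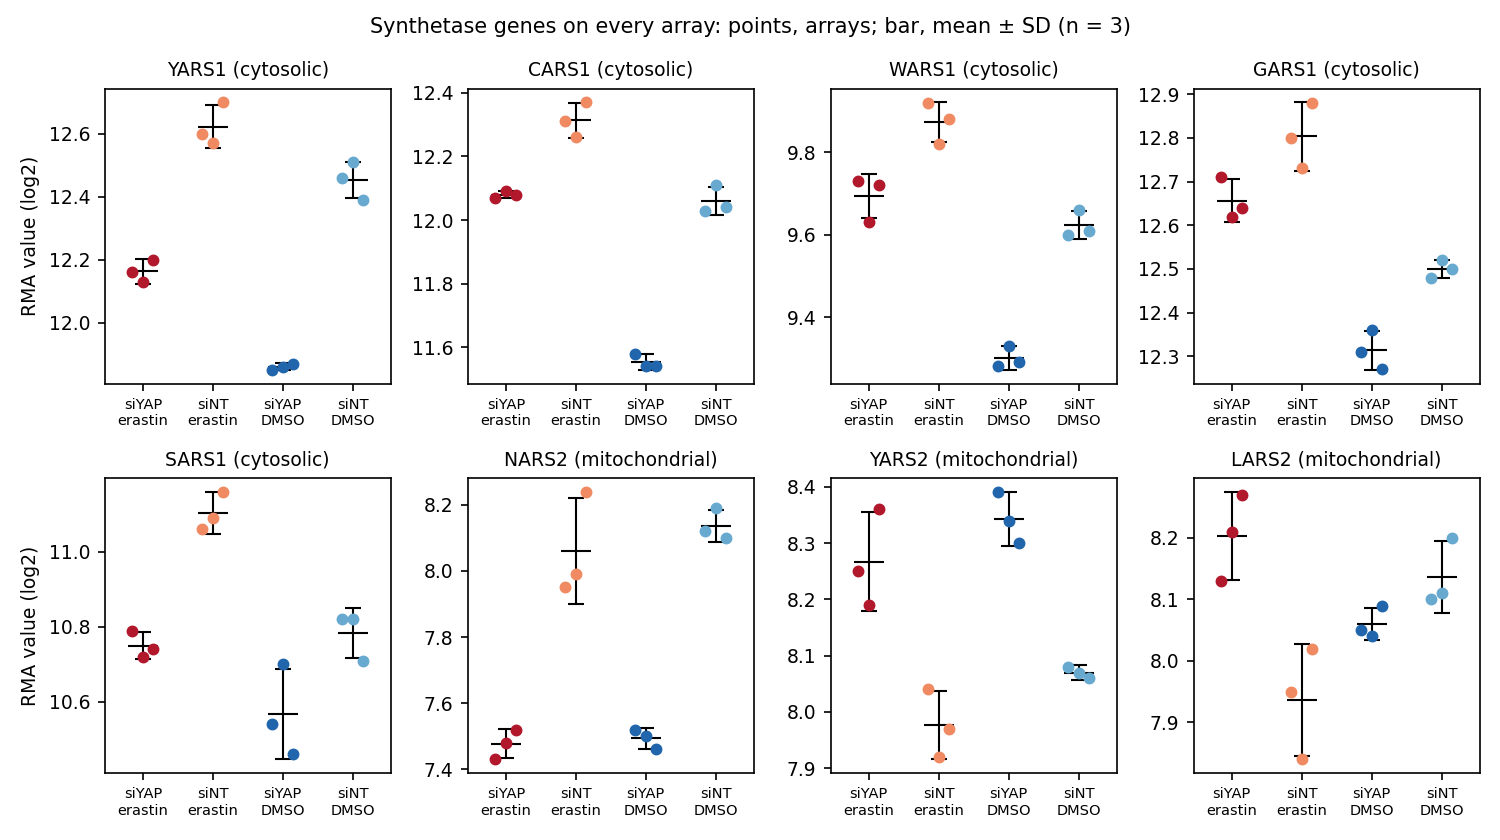
RMA values (log2) of 8 synthetase genes on each of the 12 arrays, in the order siYAP erastin, siNT erastin, siYAP DMSO and siNT DMSO. Points are arrays and bars show the mean ± SD (n = 3). YARS1, CARS1, WARS1 and NARS2 sit lower in siYAP than in siNT cells under each treatment, YARS2 sits higher, and each axis has its own range that does not start at 0.

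The response to erastin was then compared within each siRNA. In siNT cells few genes moved, 0.752% of all genes, 0.485% higher and 0.267% lower. Of the 17 cytosolic genes 3 rose and none fell, with a median of 0.12 against 0.00 over all genes. None of the 10 mitochondrial genes was called by limma, and their median was -0.02. An unadjusted p under 0.05 was reached by 9 of 17 cytosolic genes, 1 of 10 mitochondrial genes and 10.6% of all genes. In 9 of 17 cytosolic genes all erastin arrays lay above all DMSO arrays, which held for 1 of 10 mitochondrial genes and 5.89% of all genes. They lay below in 0 cytosolic and 2 mitochondrial genes, against 8.51% of all genes.

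GARS1 read 12.80, 12.73 and 12.88 in siNT cells with erastin, against 12.48, 12.52 and 12.50 in siNT cells with DMSO. It rose by 0.30 (0.18 to 0.42, limma adjusted p = 0.0278), a 1.23-fold higher level with the groups apart. CARS1 read 12.31, 12.26 and 12.37 with erastin, against 12.03, 12.11 and 12.04 with DMSO, and rose by 0.25 (limma adjusted p = 0.0427). WARS1 read 9.92, 9.82 and 9.88 with erastin, against 9.60, 9.66 and 9.61 with DMSO, and also rose by 0.25 (limma adjusted p = 0.0486). SARS1 had the largest difference, 0.32, with 11.06, 11.09 and 11.16 under erastin against 10.82, 10.82 and 10.71 in DMSO, and missed the threshold (limma adjusted p = 0.0516). AARS1, EPRS1, TARS1, YARS1 and IARS1, not called, had values of 0.24, 0.20, 0.18, 0.17 and 0.12, each with all erastin arrays above all DMSO arrays. KARS1 and AIMP1 had -0.04 and -0.06.

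These 3 calls sat close to the threshold. The count was 0 in a fit of only the 6 arrays compared, and 0 without siNT DMSO replicate 1, 2 or 3, siNT erastin replicate 1 or 3, or siYAP erastin replicate 3. It was 1 without siNT erastin replicate 2, siYAP DMSO replicate 1, or siYAP erastin replicate 1 or 2, 7 with a trended and robust variance model, and 6 with array weights.

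In siYAP cells 0.334% of all genes were called with erastin, 0.326% higher and 0.00836% lower. Of 17 cytosolic genes 4 rose and none fell, with a median of 0.10 against 0.00 over all genes, and CARS1, GARS1 and WARS1 were called here as in siNT cells. None of the 10 mitochondrial genes was called by limma, and their median was 0.01. An unadjusted p under 0.05 was reached by 8 of 17 cytosolic genes, 1 of 10 mitochondrial genes and 10.7% of all genes. All erastin arrays lay above all DMSO arrays in 9 of 17 cytosolic and 4 of 10 mitochondrial genes, and in 12% of all genes. They lay below in 0 cytosolic and 1 mitochondrial gene, against 10.4% of all genes.

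CARS1, the cysteinyl enzyme, had the largest rise in siYAP cells. It read 12.07, 12.09 and 12.08 in siYAP cells with erastin, against 11.58, 11.54 and 11.54 in siYAP cells with DMSO. The difference was 0.52 (0.42 to 0.63, limma adjusted p = 0.000184), its other probe set gave 0.54, and the call held under all 20 alternatives that set no minimum fold. WARS1 read 9.73, 9.63 and 9.72 with erastin, against 9.28, 9.33 and 9.29 with DMSO, and rose by 0.40 (limma adjusted p = 0.00345). The call was lost only with the mean of both WARS1 probe sets (limma adjusted p = 0.0761). Its other probe set alone gave 0.19 and was not called (limma adjusted p = 0.455 over probe sets). GARS1 read 12.71, 12.62 and 12.64 with erastin, against 12.31, 12.36 and 12.27 with DMSO, and rose by 0.34 (limma adjusted p = 0.0188). YARS1 rose by 0.30 (limma adjusted p = 0.0391), with 12.16, 12.13 and 12.20 under erastin against 11.85, 11.86 and 11.87 in DMSO. GARS1 and YARS1 missed the threshold under 8 and 11 of 20 alternatives. The count of 4 was 2 without any 1 of the 6 siYAP arrays and 2 in a fit of those 6 arrays alone. KARS1 and AIMP1 had 0.02 and 0.01.

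**Figure D3:**
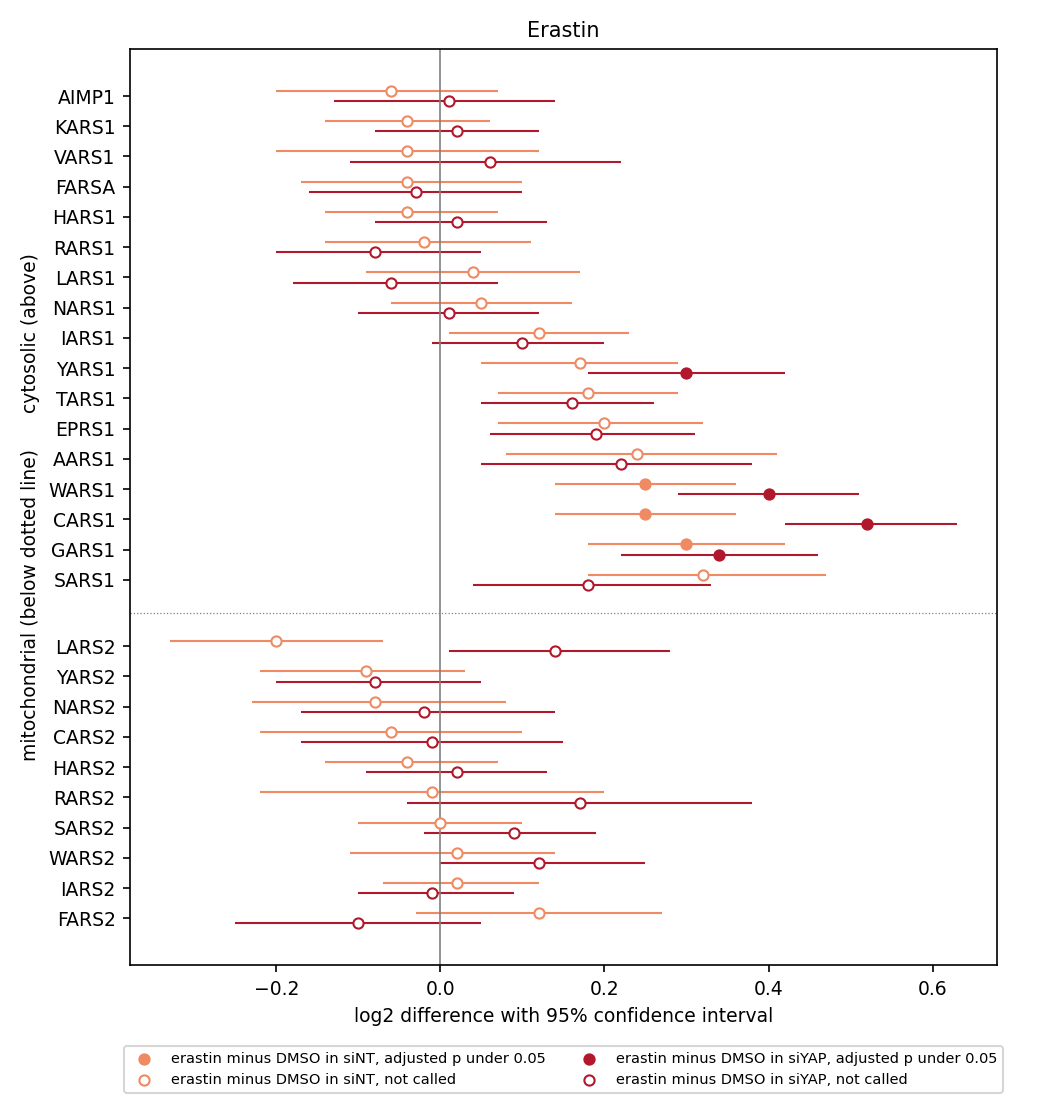
Log2 difference erastin minus DMSO with its 95% confidence interval for the same 27 genes, in siNT and in siYAP cells, with cytosolic genes above the dotted line and mitochondrial genes below it. Filled points passed an adjusted p under 0.05. GARS1, CARS1 and WARS1 are filled in both, YARS1 in siYAP cells, and no mitochondrial point is filled.

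Whether the erastin response differed between siYAP and siNT cells was tested by the interaction. No member and 0% of all genes were called by limma. At an unadjusted p under 0.05 stood 3 of 27 members, CARS1 with 0.27 (0.12 to 0.42), LARS2 with 0.34 (0.16 to 0.53) and FARS2 with -0.22 (-0.43 to -0.01), against 9.86% of all genes. Other settings, the trended and robust model and array weights included, also called no member. CARS1 averaged 12.08 ± 0.011 in siYAP cells with erastin, 12.31 ± 0.054 in siNT cells with erastin, 11.55 ± 0.025 in siYAP cells with DMSO and 12.06 ± 0.045 in siNT cells with DMSO (SD, n = 3 each).

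On single arrays, the median over the 17 cytosolic genes of the difference from the siNT DMSO mean was -0.01, -0.06 and -0.07 in siYAP cells with erastin and 0.13, 0.11 and 0.10 in siNT cells with erastin. It was -0.19, -0.13 and -0.20 in siYAP cells with DMSO and 0.01, 0.04 and -0.04 in siNT cells with DMSO. The siYAP arrays lay below the siNT arrays under each treatment, and the erastin arrays above the DMSO arrays for each siRNA. Mitochondrial medians stayed between -0.10 and 0.01 on all 12 arrays. The comparisons of silencing in DMSO and of erastin in siYAP cells share the siYAP DMSO arrays, which enter them with opposite signs. Those of silencing under erastin and of erastin in siNT cells share the siNT erastin arrays in the same way. Within each of these pairs the opposite signs are therefore not independent of each other. Silencing in DMSO and erastin in siNT cells share the siNT DMSO arrays with the same sign, which does not favour opposite signs.

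Both enzymes of an amino acid were measured for 10 amino acids, with FARSA, a subunit of the cytosolic phenylalanyl enzyme, set beside FARS2. The erastin difference was higher for the cytosolic than for the mitochondrial gene in 8 of the 10 pairs in siYAP cells and in 7 of 10 in siNT cells. The 8 include HARS1 and HARS2, which were only 0.01 apart, and NARS1 and NARS2, 0.02 apart. The pair with the dim RARS2 went the other way, by -0.25 in siYAP and -0.01 in siNT cells. So did LARS1 and LARS2 in siYAP cells, by -0.20, and FARSA and FARS2 in siNT cells, by -0.16. In siNT cells HARS1 and HARS2 were 0.00 apart. CARS1 and CARS2 had 0.52 and -0.01 in siYAP cells and 0.25 and -0.06 in siNT cells. After silencing the pairs did not run one way. YARS1 and YARS2 had -0.59 and 0.27 in DMSO, WARS1 and WARS2 had -0.33 and -0.09, whereas NARS1 and NARS2 had -0.21 and -0.64. The pairs' differences were not tested.

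The 6 measured cytosolic genes with TGATGNAA (AARS1, CARS1, GARS1, IARS1, NARS1 and TARS1) were set beside the 8 cytosolic genes with a promoter and no match. Of the 6, IARS1 alone belongs to the multisynthetase complex, whereas EPRS1, KARS1, RARS1 and AIMP1 of the 8 do. The grouping therefore overlaps with that of free and complex-bound enzymes, and the part of each was not tested. YARS1 and VARS1, which also fell in DMSO, have no promoter in the table and stand in neither group. With silencing in DMSO all 6 fell, with a median of -0.21. Of the 8, WARS1 and SARS1 fell, and the median of the 8 was -0.04. Over all genes 15.6% fell. With silencing under erastin 5 of the 6 fell, with a median of -0.23, while 2 of the 8 fell and 1 rose, with a median of -0.06. The rise was that of AIMP1, whose direction is not settled, since its other probe set gave -0.73. With the mean of its probe sets AIMP1 was called lower, at -0.256 under erastin and -0.23 in DMSO. Over all genes 14.8% fell and 20% rose. With erastin 2 of the 6 rose for each siRNA, CARS1 and GARS1, with medians of 0.19 in siYAP and 0.21 in siNT cells. Of the 8 without a match WARS1 alone rose, with medians of 0.02 in siYAP and -0.03 in siNT cells. Over all genes 0.326% rose in siYAP and 0.485% in siNT cells. The 6 differed among themselves: with erastin NARS1 had 0.01 in siYAP and 0.05 in siNT cells, whereas TARS1, whose match also lies within the transcript, had 0.16 and 0.18. AARS1 had 0.22 and 0.24, and the mitochondrial YARS2, whose match lies about as far upstream, had -0.08 and -0.09.

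Over the whole table, genes with a match were called higher with erastin in 3.66% of 328 in siNT cells and 3.35% in siYAP cells, members included. The same shares were 0.401% and 0.195% of 9235 genes whose promoter has no match. With silencing in DMSO 15.5% of the genes with a match were called lower, against 16.3% of those without. Under erastin the shares were 14.3% and 15.5%.

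**Figure D4:**
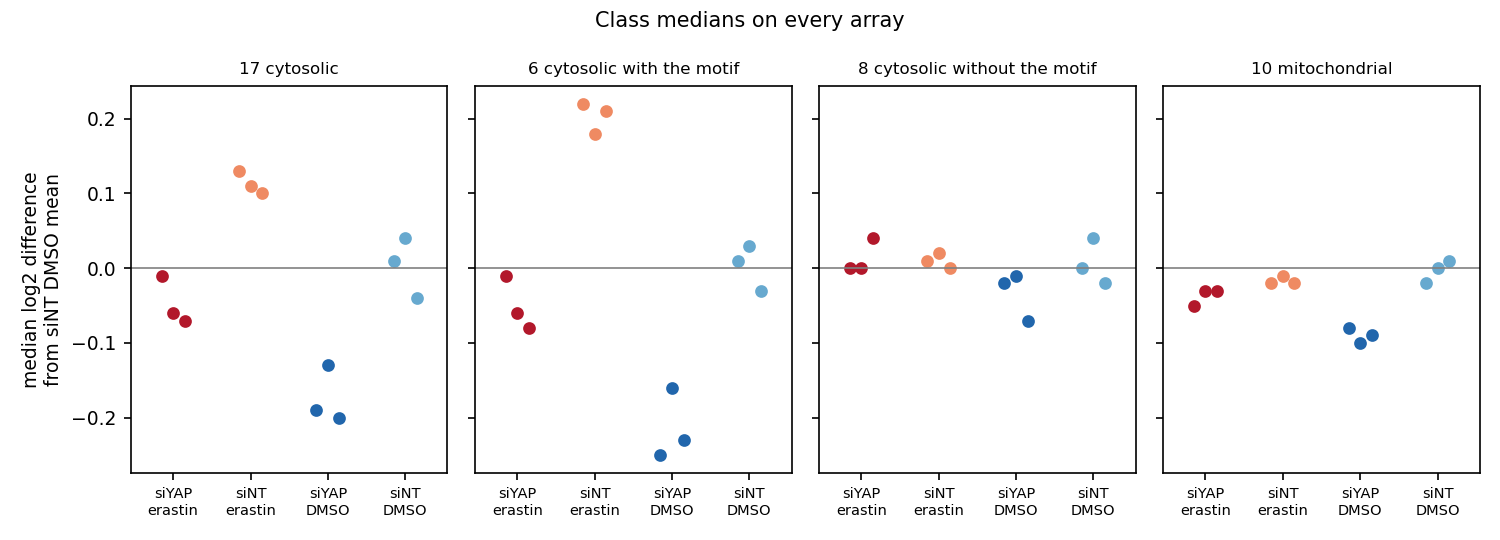
Median log2 difference from the siNT DMSO mean on each of the 12 arrays, for 17 cytosolic genes, for 6 of them with the promoter motif, for 8 with a promoter without it, and for 10 mitochondrial genes. Points are arrays in the order siYAP erastin, siNT erastin, siYAP DMSO and siNT DMSO. The 6 genes with the motif reach 0.22 with erastin in siNT cells and -0.25 with silencing in DMSO, and the mitochondrial medians stay between -0.10 and 0.01.

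Genes around the synthetases gave the setting. Of 32 other genes of the amino acid response, transporters, biosynthetic enzymes and regulators, 17 rose with erastin in siYAP cells and 19 in siNT cells, and none fell. Their medians were 0.32 and 0.47, and CHAC1, a glutathione-degrading enzyme, had 1.64 and 1.63. Over all genes 0.326% rose with erastin in siYAP cells and 0.485% in siNT cells. The synthetases that rose did so by less than the leading genes of the list of 32, which were chosen for their large change. Beside the median of the list, CARS1 (0.52), WARS1 (0.40) and GARS1 (0.34) were higher in siYAP cells and YARS1 (0.30) was lower. In siNT cells GARS1 (0.30), CARS1 (0.25) and WARS1 (0.25) were lower than its median. The synthetases named here are only the called ones. Over all 17 cytosolic genes the median was 0.10 in siYAP and 0.12 in siNT cells, below the 0.32 and 0.47 of the list. Silencing lowered 20 of the 32 under erastin, with 2 rising, and 17 in DMSO, with 4 rising. Over all genes 14.8% fell and 20% rose under erastin, and 15.6% fell and 18.1% rose in DMSO. SLC1A4, a neutral amino acid transporter, was among those that fell, with -1.46 in DMSO. The regulator ATF3 was among those that rose, with 1.00 in DMSO. ATF4 itself averaged 12.38 ± 0.03 in siYAP and 12.77 ± 0.036 in siNT cells with erastin (SD, n = 3 each), and it was called in all 4 comparisons, with -0.39 and -0.43 for silencing under erastin and in DMSO and 0.31 and 0.27 for erastin in siYAP and siNT cells.

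Of 57 mitochondrial translation genes, mostly ribosomal proteins, none was called with erastin by limma. Over all genes 0.334% were called in siYAP and 0.752% in siNT cells. An unadjusted p under 0.05 was reached by 6 in siYAP and 4 in siNT cells. These shares, 10.5% and 7.02%, were no higher than the 10.7% and 10.6% of all genes. Silencing raised 16 of the 57 and lowered 2 under erastin, and raised 9 and lowered 3 in DMSO, with MRPL34 at 1.14 and 0.94. The shares that rose were 28.1% under erastin and 15.8% in DMSO, against 20% and 18.1% of all genes, so the DMSO share was no higher than the background. Of 50 cytosolic translation factors 15 fell and 4 rose with silencing under erastin and 10 fell and 6 rose in DMSO. The shares called, 38% under erastin and 32% in DMSO, lay near the 34.9% and 33.7% of all genes, and the shares that fell were 30% and 20%, against 14.8% and 15.6% of all genes. EIF4EBP1, an inhibitor of the cap-binding factor, was the one of them that rose with erastin, by 0.45 in siYAP cells (limma adjusted p = 0.0296). Among 8 helpers of tRNA charging and modification YRDC, which takes part in making a modified base next to the anticodon, fell by 0.66 with silencing under erastin and by 0.72 in DMSO. The amidotransferase subunits GATC and GATB, which finish glutaminyl-tRNA in mitochondria, fell under erastin by 0.39 and 0.15, and QRSL1 of the same enzyme rose by 0.23 in DMSO. None of the 8 was called with erastin by limma, and 3 in siYAP and 1 in siNT cells had an unadjusted p under 0.05. These shares were 37.5% and 12.5%, against 10.7% and 10.6% of all genes.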

How the data were processed

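RNA of RCC4 cells was measured on 12 Affymetrix arrays, grouped by the sample titles. The submitters' processing notes name Affymetrix Expression Console and RMA for the deposited log2 values. RMA equalises arrays, which hides a change of total RNA and compresses dim genes. Array type, scan dates and software versions are not given in the sources, so batches were not tested, and the number of arrays limits the precision. A platform table gave 19065 of 22277 probe sets a single symbol, and the brightest probe set over all arrays stood for each gene, with no filter on low values. Here limma 3.58.1 in R 4.3.3 fitted a mean per group (8 residual degrees of freedom) in 5 comparisons and was tested on simulated data. The labels speak of biological triplicates without saying whether cultures were separate, and p-values then measure only the spread between these arrays. The members, lists, motif and alternatives were chosen with earlier results of these data known. Per comparison, up to 8 called members of each class with the largest differences, and WARS1, GARS1, KARS1 and AIMP1 always, were to be named, with up to 4 called genes of each list. Further members were named after their values were seen. Promoters were read with Python 3.11.15. Same-numbered samples did not pair: 1 of 18 correlations of their deviations was over 0.1.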

Additional observations from a re-analysis of the deposited data

Results flagged for a closer look

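LARS2, the mitochondrial leucyl enzyme, stood apart because its arrays moved opposite ways on the brighter of its 2 probe sets. With erastin all siYAP arrays were higher than their DMSO arrays (log2 difference 0.14), while all siNT arrays were lower than theirs (-0.20). By the same values silencing gave 0.27 under erastin and -0.08 in DMSO, each without overlap. The difference between the 2 responses was 0.34 and was not called (limma adjusted p = 0.378). The other probe set did not move opposite ways: it gave 0.01 for erastin in siYAP cells, -0.14 for erastin in siNT cells, 0.15 for silencing under erastin and 0.00 for silencing in DMSO.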

How the results depend on the processing

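A 2-fold minimum left 0 cytosolic and 0 mitochondrial calls in each of the 5 comparisons, and so did the submitters' zero transformation (all 3 arrays beyond 1 log2 unit of the control mean) in the 4 it applies to. For erastin in siNT cells the cytosolic count of 3 became 7 with a trended and robust variance model, 6 with array weights, 0 with the replicate number as a block and 0 in a fit of the 6 arrays compared. For erastin in siYAP cells the count of 4 became 2 with the replicate block and 2 in a fit of 6 arrays. The mitochondrial count of 5 after silencing under erastin became 3 in a fit of 6 arrays. With the replicate block the silencing counts were 9 cytosolic under erastin and 10 in DMSO. The block is given for completeness, since same-numbered samples correlated at -0.42 to 0.19 and 0 of 12 samples correlated best with their own number. Leaving out 1 array at a time, cytosolic counts ranged from 7 to 11 for silencing under erastin, 5 to 11 for silencing in DMSO, 2 to 4 for erastin in siYAP cells and 0 to 2 for erastin in siNT cells; mitochondrial counts ranged from 3 to 6 for silencing under erastin and 3 to 4 in DMSO, and were 0 for both erastin comparisons, as both classes were for the interaction. With the mean of its probe sets AIMP1 turned to -0.256 under erastin (limma adjusted p = 0.00872) and -0.23 in DMSO (0.0163). Of 2803 rechecks of 135 single values, 2635 stayed on their side of the threshold with their direction, 137 lost a call or reversed and 31 gained one. The 2-fold minimum took away all 35 calls, and the rest of the 135 values were not called to begin with. Under all 20 alternatives that set no minimum fold, 10 of 14 calls held for silencing under erastin and 8 of 14 in DMSO. For erastin 1 of 4 held in siYAP cells and 0 of 3 in siNT cells. Centring the arrays moved the median of all genes by less than 0.1. The cause of these shifts was not tested beyond the fewer arrays of the smaller fits.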
